A study of Mus musculus with 6 samples.

Results

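The chaperones of the endoplasmic reticulum (ER) and the genes of the unfolded protein response were followed as a set of 32 genes, taken by gene symbol from the 23390 genes of the deposited count table. The set holds ER chaperones and their partners, protein-folding oxidoreductases, genes of entry into and exit from the ER, stress sensors, and genes of ER-associated degradation. All 32 symbols were in the table, and all 32 were among the 13740 genes with enough counts to test. RNA came from the small-intestinal epithelium of C57BL/6 mice, after a sort for viable cells negative for CD45, which marks leukocytes, and positive for EpCAM, which marks epithelium. In 3 libraries the mice carried Maf.flox together with Vil.Cre, a Cre recombinase driven by the villin promoter of the intestinal epithelium, and in 3 control libraries they carried Maf.flox alone. Both groups thus carried the floxed allele, and no group carried Cre without it, so that effects of Cre and of Maf loss cannot be told apart. The labels give neither age nor litter, and nothing states that each library was a separate mouse, so the p-values reflect spread between libraries that may be technical.

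Proteins that enter the secretory pathway are threaded through the Sec61 channel into the ER, where chaperones and disulfide isomerases fold them. When unfolded proteins accumulate, the sensors IRE1, PERK and ATF6 start the unfolded protein response, which raises chaperone, translocation and degradation genes and slows translation. In the intestine this machinery is most developed in the secretory cells, such as mucus-making goblet cells and antimicrobial Paneth cells, and enterocytes use it for digestive enzymes and lipoproteins.

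The libraries held 17464355 to 24802525 counts. Maf itself had 16, 1 and 1 counts in Vil.Cre Maf.flox replicates 1, 2 and 3, against 9398, 5615 and 3893 in Maf.flox replicates 1, 2 and 3, which is the direction the labels give. Epithelial markers such as Epcam were high in every library (1968, 2225 and 1922 CPM in Vil.Cre Maf.flox and 2232, 2305 and 1998 CPM in Maf.flox). The leukocyte marker Ptprc stayed at or below 2.29 CPM, and 8 of 11 leukocyte markers found were under 1 CPM in all libraries. The leukocyte list still summed to 2856, 2574 and 1951 CPM in Vil.Cre Maf.flox and 1827, 1804 and 2050 CPM in Maf.flox. Nearly all of that sum came from markers other than Ptprc and these 8. CPM, the unit of level used throughout, is a count scaled to library size with TMM factors. Counts of Xist and Y-linked genes placed 2 males (replicates 1 and 2) and 1 female (replicate 3) in Vil.Cre Maf.flox, and 1 male (replicate 1) and 2 females in Maf.flox. Maf.flox replicate 3 stood apart from its group: the chi-square per gene was 133 and 61.7 against the other 2 controls and 37.8 between those.

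Most members were higher in Vil.Cre Maf.flox, by amounts well under 2-fold. For 2 members all Vil.Cre Maf.flox libraries lay below all controls, a count not above the share of all genes tested (10.5%). The folding genes Creld2, Pdia6, Hyou1, Pdia4 and Sdf2l1 had log2 fold changes of 0.50 to 0.79. The 2 lower members, the co-chaperone Dnajb9 and the degradation gene Herpud1, stood at -0.55 and -0.46. These values lie close to the 10th percentile of all genes tested, -0.52. Of the 32 members, 26 had a log2 fold change above 0, against 48.4% of all genes tested. The median over the members was 0.25, against -0.010 over all genes. These members were chosen by name with earlier results of these data known, so the counts are descriptions of the set. In bulk RNA, fewer cells of a type and less RNA per cell cannot be told apart.

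By the quasi-likelihood test of edgeR, no member reached an adjusted p of 0.05, a threshold that 0.546% of all genes tested passed. At an unadjusted p under 0.05, which 16.4% of all genes met, there were 16 members on the higher side and 2 on the lower side, against 7.11% and 9.25% of all genes on those sides. At an adjusted p of 0.1, which 2.71% of all genes passed, 6 members were called. Creld2, Pdia6, Hyou1 and Pdia4 were higher (1.02% of all genes), and Dnajb9 and Herpud1 were lower (1.69%). DESeq2 called 14 members at 0.05, 12 higher and 2 lower, where it called 5.54% of all genes (2.06% higher and 3.48% lower). The calls of limma-voom were 0 members and 0.218% of all genes, and those with a term for sex 0 members and 0.277%. Without the filter on low counts 7 members were called (1.58% of all genes), and with a block for replicate number 7 members (3.2%). Without Maf.flox replicate 3, edgeR called Creld2, Pdia4, Dnajb9 and Herpud1, against 5% of all genes. The libraries of both groups did not overlap for 17 members on the higher side (10.1% of all genes) and 2 on the lower side (10.5% of all genes).

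**Figure D1:**
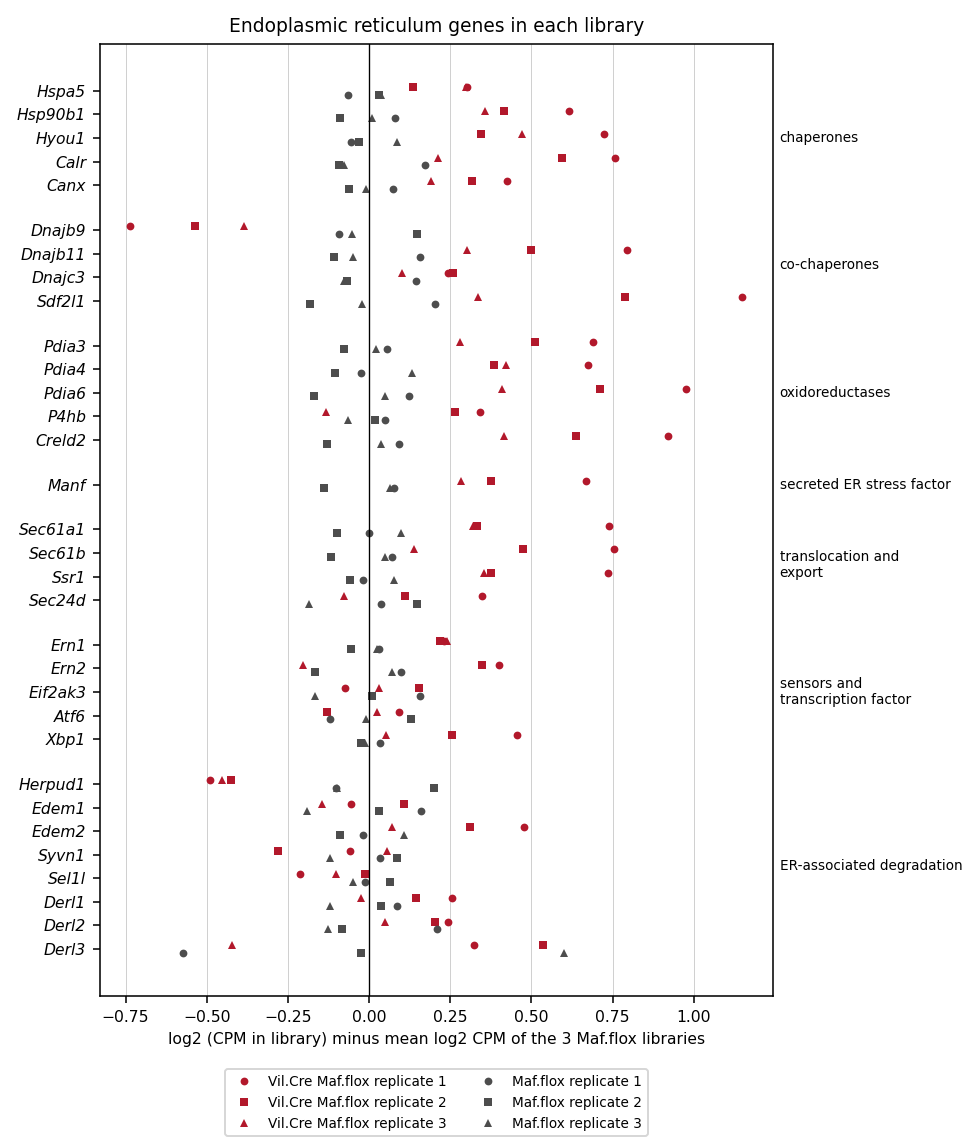
Each row is a member, grouped by role, and each point a library: log2 CPM minus the mean log2 CPM of the 3 Maf.flox libraries (red, Vil.Cre Maf.flox; grey, Maf.flox; symbols, replicates). The chaperones, oxidoreductases and translocation genes lie to the right in most Vil.Cre Maf.flox libraries, Dnajb9 and Herpud1 lie to the left in all 3, and the degradation genes are mixed.

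The promoters of several members share a sequence element, the ER stress response element (ERSE), which the sensor ATF6 binds together with the factor NF-Y. It was searched on both strands as CCAAT and CCACG with 9 bases of any kind between them. The shorter ERSE-II was searched as ATTGG and CCACG with 1 base of any kind between them. RefSeq promoter windows (GRCm38.p6, 250 bases before to 50 after the start site) matched 26 of the 32 members. Atf6, Derl1, Ern2, Hyou1, Manf and Sec61a1 had no entry. An ERSE was found in 9 of these 26 genes, against 0.119% of all 32851 windows, and an ERSE-II in 2 genes, against 0.0365%. The element UPRE, TGACGTGG, was in Sec24d, against 0.676% of windows, and the 2 half-boxes CCAAT and CCACG, which are part of the ERSE, were in 37.4% and 32.8% of windows. The matches follow with 5 flanking bases on each side, in the direction of the motif, with the fixed letters in capitals.
Hspa5, chr2:34772025-34772043: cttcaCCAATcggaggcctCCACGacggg
Hsp90b1, chr10:86705638-86705656: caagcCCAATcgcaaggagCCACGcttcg
Hsp90b1, chr10:86705533-86705551: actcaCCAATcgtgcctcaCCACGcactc
Calr, chr8:84847075-84847093: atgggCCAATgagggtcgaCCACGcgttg
Canx, chr11:50325800-50325818: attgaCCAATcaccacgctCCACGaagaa
Dnajc3, chr14:118937827-118937845: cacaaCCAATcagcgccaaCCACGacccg
Pdia6, chr12:17266491-17266509: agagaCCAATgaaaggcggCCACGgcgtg
Creld2, chr15:88819520-88819538: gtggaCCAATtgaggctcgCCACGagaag
Syvn1, chr19:6046532-6046550: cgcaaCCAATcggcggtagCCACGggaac
Derl3, chr10:75893242-75893260: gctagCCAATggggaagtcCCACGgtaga
Dnajb11 (ERSE-II), chr16:22857852-22857862: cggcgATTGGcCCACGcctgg
Herpud1 (ERSE-II), chr8:94386377-94386387: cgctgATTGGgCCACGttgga

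The 9 ERSE genes had log2 fold changes between -0.09 for Syvn1 and 0.71 for Pdia6, with 8 of 9 above 0. Of all 32 members, 26 were above 0, and whether members with and without an ERSE differ was not tested. The 8 include Derl3, which had only 11 to 22 counts per library and whose direction is unknown. The ERSE-II genes parted, with Dnajb11 at 0.54 and Herpud1 at -0.46. A palindromic Maf recognition element, searched as TGCTGA and TCAGCA with 1 base between them, was in no member window and in 0.0061% of all windows. A match describes letters and is not a site shown to be bound. For 3 of these genes the 250 bases before the RefSeq start site are given whole, 5′ to 3′ in the direction of the gene, with fixed ERSE or ERSE-II letters in capitals: Hspa5 as the gene of the best known chaperone, Creld2 as the member with the smallest p, and Herpud1 as a member on the lower side.
Hspa5, chr2:34771840-34772089, plus strand: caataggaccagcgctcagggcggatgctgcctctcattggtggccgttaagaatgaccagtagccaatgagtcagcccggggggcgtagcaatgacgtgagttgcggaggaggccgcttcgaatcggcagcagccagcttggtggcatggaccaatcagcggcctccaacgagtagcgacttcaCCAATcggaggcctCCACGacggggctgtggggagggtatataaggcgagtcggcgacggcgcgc
Creld2, chr15:88819396-88819645, plus strand, with the ERSE on the other strand: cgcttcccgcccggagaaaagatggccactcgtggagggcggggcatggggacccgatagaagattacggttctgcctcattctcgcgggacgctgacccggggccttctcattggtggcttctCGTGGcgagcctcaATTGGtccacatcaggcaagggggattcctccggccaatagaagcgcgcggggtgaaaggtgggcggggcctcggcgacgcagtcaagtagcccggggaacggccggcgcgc
Herpud1, chr8:94386179-94386428, plus strand: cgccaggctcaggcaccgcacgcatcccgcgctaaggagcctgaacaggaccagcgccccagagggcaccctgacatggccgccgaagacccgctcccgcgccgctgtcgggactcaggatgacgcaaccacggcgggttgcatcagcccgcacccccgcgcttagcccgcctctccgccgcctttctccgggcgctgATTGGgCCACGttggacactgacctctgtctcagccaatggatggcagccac

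**Figure D2:**
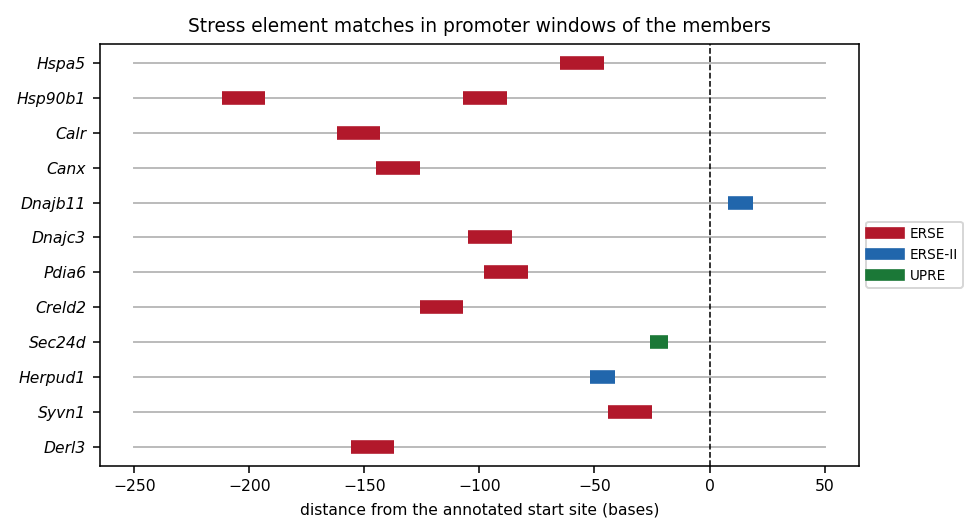
Grey lines are the RefSeq promoter windows of the members with a match, by distance in bases from the annotated start site (dashed). Blocks are matches to ERSE (red), ERSE-II (blue) and UPRE (green), and all but that of Dnajb11 lie before the start site.

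Among the chaperones themselves, all 5 were higher in every Vil.Cre Maf.flox library than in any Maf.flox library, as were 10.1% of all genes tested. Hspa5 (ENSMUSG00000026864, GRCm38 chromosome 2, 34771970 to 34777547, plus strand) encodes BiP, the main Hsp70 chaperone of the ER and the partner that keeps the stress sensors quiet. It had 994, 885 and 991 CPM in Vil.Cre Maf.flox replicates 1, 2 and 3, against 771, 823 and 826 CPM in Maf.flox replicates 1, 2 and 3. The groups did not overlap, but the gap between the nearest libraries was small, and the log2 fold change was 0.25 (SE 0.118, adjusted p = 0.346 by edgeR's quasi-likelihood test). Hsp90b1, which encodes the ER Hsp90 GRP94, had 638, 556 and 534 CPM in Vil.Cre Maf.flox and 440.1, 391 and 419 CPM in Maf.flox. Its log2 fold change of 0.47 (SE 0.119) had an adjusted p of 0.114 by edgeR and 0.0048 by DESeq2. Part of its exons, 10.3% of their bases, overlaps a pseudogene on the other strand, whose reads cannot be told apart if counting ignored strand.

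Hyou1 (GRCm38 chromosome 9, 44379490 to 44392369, plus strand), an Hsp110-like exchange factor for BiP, had 291, 224 and 244 CPM in Vil.Cre Maf.flox and 169, 172 and 187 CPM in Maf.flox. Its lowest Vil.Cre Maf.flox library lay clear of the highest control, with a log2 fold change of 0.52 (SE 0.122, adjusted p = 0.0935 by edgeR). Calreticulin (Calr) and calnexin (Canx) hold newly made glycoproteins through their sugar chains. Calr had 1601, 1429 and 1097 CPM in Vil.Cre Maf.flox, against 1065, 887 and 897 CPM in Maf.flox, with replicate 3 of Vil.Cre Maf.flox close to replicate 1 of the controls. The log2 fold change of Calr was 0.53 (SE 0.168, edgeR adjusted p 0.174). Canx had 840.1, 779.6 and 715 CPM in Vil.Cre Maf.flox and 659, 600.0 and 622 CPM in Maf.flox, again without overlap, and a log2 fold change of 0.31 (SE 0.119, edgeR adjusted p 0.241).

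The co-chaperones lay on both sides of 0. Sdf2l1 (GRCm38 chromosome 16, 17130138 to 17132383, minus strand), a soluble partner of BiP and DnaJ proteins, had 100.1, 78.0 and 57.0 CPM in Vil.Cre Maf.flox, against 52.0, 39.8 and 44.5 CPM in Maf.flox. Its log2 fold change of 0.79 (SE 0.202, adjusted p = 0.124 by edgeR) was the highest of the 32, and its Vil.Cre Maf.flox libraries were widely spread. Dnajb11, the DnaJ protein ERdj3 that hands unfolded clients to BiP, had 198, 161 and 141 CPM in Vil.Cre Maf.flox and 127, 106 and 110.3 CPM in Maf.flox. Its groups did not overlap either, with a log2 fold change of 0.54 (SE 0.142, adjusted p = 0.123). Dnajc3, which encodes the BiP co-chaperone p58IPK, had 195, 197 and 177 CPM in Vil.Cre Maf.flox and 182, 157 and 156 CPM in Maf.flox. These groups overlapped, with a log2 fold change of 0.20 (95% interval -0.044 to 0.44).

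Dnajb9 (ENSMUSG00000014905, GRCm38 chromosome 12, 44205559 to 44210326, minus strand) encodes ERdj4, a DnaJ protein that brings BiP to the sensor IRE1 and to proteins bound for degradation. It had 33.1, 37.9 and 42.1 CPM in Vil.Cre Maf.flox, against 51.6, 61.0 and 53.1 CPM in Maf.flox. Every Vil.Cre Maf.flox library was below every control, and the Vil.Cre Maf.flox libraries stood in the opposite order to that of Sdf2l1, with Vil.Cre Maf.flox replicate 1 the farthest from the controls for both genes. The log2 fold change was -0.55 (SE 0.119, 95% interval -0.82 to -0.28), with an adjusted p of 0.0825 by edgeR and 0.00828 by DESeq2.

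**Figure D3:**
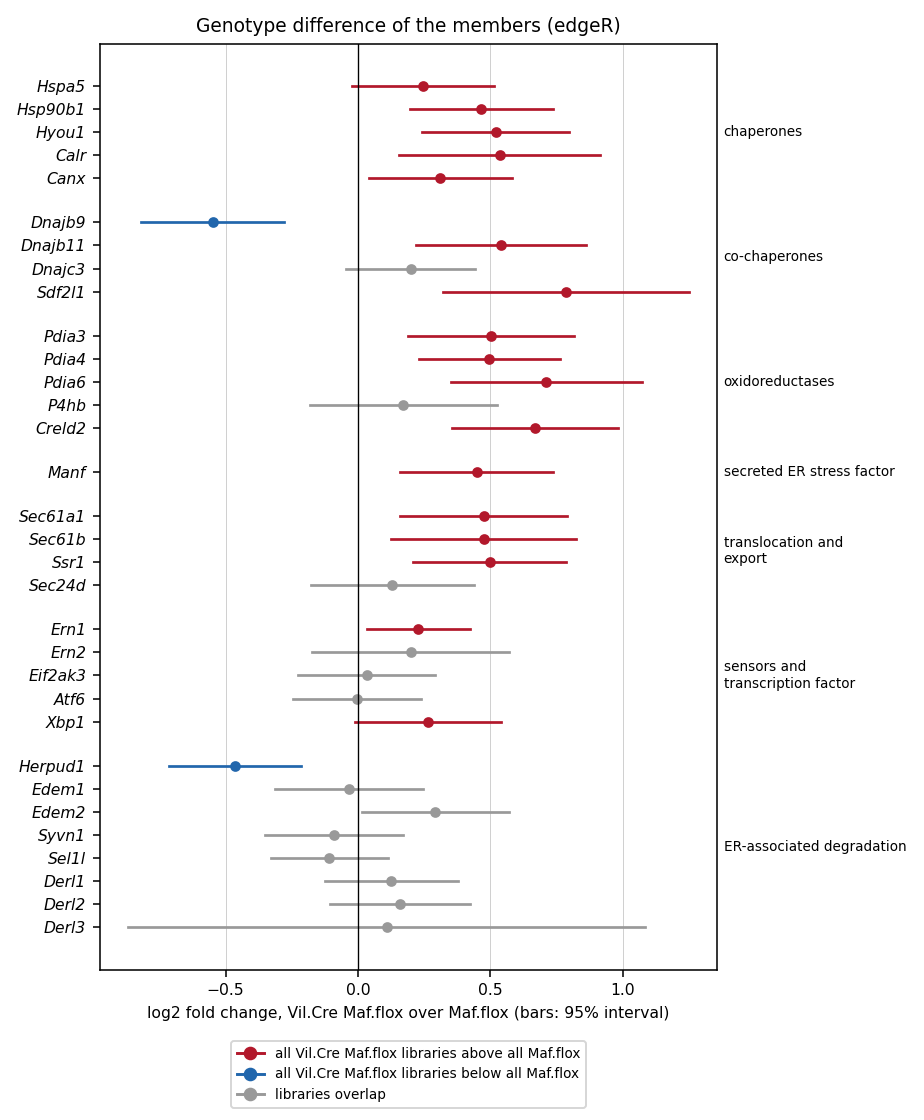
Points are log2 fold changes of Vil.Cre Maf.flox over Maf.flox by edgeR and bars their 95% intervals, for each member by role. Red marks the 17 members whose Vil.Cre Maf.flox libraries all lay above the controls, blue the 2 whose libraries all lay below, and grey those that overlapped; no member passed an adjusted p of 0.05.

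All 5 genes of disulfide bond formation had log2 fold changes above 0. Pdia6 (GRCm38 chromosome 12, 17266545 to 17284770, plus strand), a disulfide isomerase that also acts on the sensor IRE1, had 526, 438 and 355 CPM in Vil.Cre Maf.flox and 292, 238 and 277 CPM in Maf.flox. The groups were clearly separate, with a log2 fold change of 0.71 (SE 0.159, adjusted p = 0.0866 by edgeR). Creld2 (ENSMUSG00000023272, GRCm38 chromosome 15, 88819646 to 88826683, plus strand), a stress-induced protein with isomerase activity, had 74.8, 61.4 and 52.7 CPM in Vil.Cre Maf.flox, against 42.1, 36.1 and 40.5 CPM in Maf.flox. Its log2 fold change was 0.67 (SE 0.137, 95% interval 0.36 to 0.98), and its adjusted p of 0.0736 by edgeR was the smallest of the 32 members.

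Pdia3, the isomerase that works with calnexin and calreticulin on glycoproteins, had 1113, 984 and 838 CPM in Vil.Cre Maf.flox and 717, 655 and 700.2 CPM in Maf.flox, with a log2 fold change of 0.50 (SE 0.138, adjusted p = 0.132). Pdia4, a further isomerase, had 202, 165 and 169 CPM in Vil.Cre Maf.flox and 124, 118 and 139 CPM in Maf.flox, with a log2 fold change of 0.50 (SE 0.117, adjusted p = 0.095). Neither gene overlapped between groups. P4hb, the classical disulfide isomerase and a subunit of the lipid transfer protein MTP, had 2032, 1923 and 1462 CPM in Vil.Cre Maf.flox and 1656, 1621 and 1531 CPM in Maf.flox. Vil.Cre Maf.flox replicate 3 lay below all controls, and the log2 fold change of 0.17 had a 95% interval of -0.18 to 0.53. Manf, a secreted protein that binds BiP and is induced by ER stress, had 177, 144 and 135 CPM in Vil.Cre Maf.flox and 117, 101 and 116 CPM in Maf.flox, again without overlap. The log2 fold change of Manf was 0.45 (SE 0.127), with an edgeR adjusted p of 0.142 and a DESeq2 adjusted p of 0.0396.

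Genes of entry into the ER lay on the higher side too. Sec61a1 encodes the pore of the translocation channel, Sec61b a small subunit of it, and Ssr1 a subunit of the translocon-associated protein complex. Sec61a1 had 460.4, 348 and 345 CPM in Vil.Cre Maf.flox and 276, 258 and 295 CPM in Maf.flox, and Ssr1 had 304, 237 and 234 CPM in Vil.Cre Maf.flox and 181, 175 and 193 CPM in Maf.flox. Sec61b had 213, 175 and 139 CPM in Vil.Cre Maf.flox and 133, 116 and 131 CPM in Maf.flox. For these 3 genes no control library reached a Vil.Cre Maf.flox library, which held for 10.1% of all genes tested. The log2 fold changes of Sec61a1, Sec61b and Ssr1, in that order, were 0.47, 0.47 and 0.50 (SE 0.139, 0.154 and 0.127). In the same order, their adjusted p values were 0.153, 0.185 and 0.114 by edgeR. Of the exon bases of Sec61a1, 8.16% overlap an antisense gene. Sec24d, a cargo adaptor of the COPII coat that buds from the ER, had 119, 101 and 88.3 CPM in Vil.Cre Maf.flox and 95.7, 103 and 82.0 CPM in Maf.flox. The groups overlapped, with a log2 fold change of 0.13 (95% interval -0.18 to 0.44).

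The 4 sensors and Xbp1 had smaller values, with log2 fold changes of -0.0036 to 0.26. Only Ern1 and Xbp1 did not overlap between groups, both on the higher side (10.1% of all genes tested). Ern1, the gene of the widely expressed IRE1 alpha, had 73.9, 73.3 and 74.5 CPM in Vil.Cre Maf.flox and 64.5, 60.7 and 64.1 CPM in Maf.flox. The libraries of each group were close together, and the log2 fold change was 0.23 (SE 0.086, adjusted p = 0.236). Ern2, which encodes IRE1 beta, the form restricted to mucosal epithelium, had 48.9, 47.1 and 32.2 CPM in Vil.Cre Maf.flox and 39.6, 33.0 and 38.8 CPM in Maf.flox. Its groups overlapped, with Vil.Cre Maf.flox replicate 3 the lowest of all 6 libraries, and the 95% interval of its log2 fold change was -0.17 to 0.57.

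Xbp1, the transcription factor whose mRNA IRE1 splices, had 296, 258 and 224 CPM in Vil.Cre Maf.flox and 221, 212 and 214 CPM in Maf.flox, with a log2 fold change of 0.26 (SE 0.121, adjusted p = 0.328). The groups of Xbp1 did not overlap, but Vil.Cre Maf.flox replicate 3 and Maf.flox replicate 1 were close, at 223.5 and 221.0 CPM. Gene counts hold spliced and unspliced Xbp1 together, so splicing by IRE1 was not measured. Eif2ak3, the gene of PERK, had 38.4, 44.9 and 41.3 CPM in Vil.Cre Maf.flox and 45.1, 40.7 and 36.0 CPM in Maf.flox, and Atf6, the sensor that is cut to release a transcription factor, had 87.6, 75.2 and 83.6 CPM in Vil.Cre Maf.flox and 75.6, 89.9 and 81.5 CPM in Maf.flox. Both overlapped between groups. The 95% intervals of their log2 fold changes were -0.23 to 0.29 and -0.25 to 0.24, and the sign of both values changed with the fit: Atf6 was 0.0032 with RLE scaling and 0.0035 with DESeq2, and Eif2ak3 -0.0040 with a term for sex. Of the exon bases of Eif2ak3, 8.05% overlap a gene on the other strand.

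Genes of ER-associated degradation, which send misfolded proteins back to the cytosol, were mixed: 4 of 8 lay above 0 and 4 below, with a median log2 fold change of 0.037. Herpud1 (ENSMUSG00000031770, GRCm38 chromosome 8, 94386438 to 94395377, plus strand), a membrane protein that organizes the degradation complex and a classical stress-induced gene, had 77.0, 80.5 and 78.9 CPM in Vil.Cre Maf.flox, against 101, 124 and 101 CPM in Maf.flox. Its 3 Vil.Cre Maf.flox libraries were nearly level and all lay below the controls. The log2 fold change of Herpud1 was -0.46 (SE 0.11, 95% interval -0.71 to -0.21), with an adjusted p of 0.0962 by edgeR and 0.0134 by DESeq2. The ubiquitin ligase Syvn1 had 76.0, 65.1 and 82.2 CPM in Vil.Cre Maf.flox and 81.1, 84.0 and 72.9 CPM in Maf.flox, and its adaptor Sel1l had 112, 129 and 121 CPM in Vil.Cre Maf.flox and 129, 136 and 126 CPM in Maf.flox. These genes encode the core of the complex, and had log2 fold changes of -0.09 and -0.11 (95% intervals -0.35 to 0.17 and -0.33 to 0.11).

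Edem1 and Edem2, which trim mannose from glycoproteins bound for degradation, were on different sides of 0. Edem1 had 169.5, 190.0 and 159 CPM in Vil.Cre Maf.flox and 197, 180.1 and 154 CPM in Maf.flox, and Edem2 had 111, 98.6 and 83.4 CPM in Vil.Cre Maf.flox and 78.5, 74.8 and 85.7 CPM in Maf.flox. Their log2 fold changes were -0.035 and 0.29 (95% intervals -0.31 to 0.24 and 0.014 to 0.57). The derlins Derl1 and Derl2, membrane proteins of the exit channel, had log2 fold changes of 0.13 and 0.16 (95% intervals -0.13 to 0.38 and -0.11 to 0.42). Derl1 had 154, 143 and 127 CPM in Vil.Cre Maf.flox and 137, 133 and 119 CPM in Maf.flox, and Derl2 had 63.4, 61.7 and 55.5 CPM in Vil.Cre Maf.flox and 61.9, 50.5 and 49.1 CPM in Maf.flox. Apart from Herpud1, all degradation members overlapped between groups. Derl3 was near the limit of detection, with 17, 17 and 12 counts in Vil.Cre Maf.flox and 11, 13 and 22 counts in Maf.flox, and its 95% interval of -0.87 to 1.09 leaves its direction unknown.

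Levels per length placed the most abundant chaperones and isomerases far above the sensors. On the scale of the authors' FPKM, means in Vil.Cre Maf.flox and Maf.flox were 633 and 558 for P4hb, 479 and 328 for Calr, 312 and 219 for Pdia3 and 227 and 189.9 for Hspa5, the 4 highest members. The sensors Ern2, Atf6, Ern1 and Eif2ak3 had mean FPKM of 14.4, 8.92, 9.07 and 6.91 in Vil.Cre Maf.flox, against 12.5, 8.88, 7.69 and 6.71 in Maf.flox. Of the 2 members on the lower side, Herpud1 had mean FPKM of 33.9 in Vil.Cre Maf.flox and 46.3 in Maf.flox, and Dnajb9 had 14.8 in Vil.Cre Maf.flox and 21.5 in Maf.flox.

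The summed level of the 32 members was 11421, 10192 and 8978 CPM in Vil.Cre Maf.flox replicates 1, 2 and 3, against 8382, 7879 and 7964 CPM in Maf.flox replicates 1, 2 and 3. The means were 10197 ± 1222 CPM and 8075 ± 269.6 CPM (SD, n = 3 each), a ratio of 1.26. The Vil.Cre Maf.flox libraries spread over a wider range than the controls, and replicate 3 lay nearest to them. Within Vil.Cre Maf.flox, replicate 1 was the highest library for 23 members, or 71.9%, against 29.9% of all genes tested. Replicate 3 was the lowest for 22 members, or 68.8%, against 39.3% of all genes tested. Within Maf.flox, replicate 1, the only male control, was the highest library for 19 members, or 59.4%, against 33.9% of all genes tested. Maf.flox replicate 2, a female, was the lowest for 17 members, or 53.1%, against 25.6% of all genes tested. The only female Vil.Cre Maf.flox library is replicate 3, and the only male control is Maf.flox replicate 1. Sex and these libraries cannot be told apart. Within males, where 2 Vil.Cre Maf.flox libraries met 1 control, 26 of 32 members were higher in Vil.Cre Maf.flox (median log2 ratio 0.31). Within females, where 1 Vil.Cre Maf.flox library met 2 controls, 23 of 32 were higher (median 0.17). With 1 library on one side, these ratios are descriptions and do not separate genotype from library.

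Markers of intestinal cell types were set beside these values, and their part in the difference of the members was not tested. Of the 12 goblet markers, 7 had log2 fold changes above 0 and 5 below, and none was called. The sum was 21498, 29399 and 15475 CPM in Vil.Cre Maf.flox and 34449.6, 28760.1 and 15596 CPM in Maf.flox, of which Fcgbp alone gave 10057, 13498 and 7200.0 CPM in Vil.Cre Maf.flox and 16469, 13310.2 and 6782 CPM in Maf.flox. The 5 below 0 were the abundant products Muc2, Tff3, Clca1, Fcgbp and Zg16. The goblet cell factors Spdef and Atoh1 were higher in Vil.Cre Maf.flox replicates 1 and 2 than in replicate 3 and the controls. The goblet markers Bcas1 and Klk1 and the 5 below 0 did not show this order. Spdef had 66.3, 58.1 and 39.0 CPM in Vil.Cre Maf.flox and 49.9, 48.7 and 44.9 CPM in Maf.flox, and Atoh1 had 54.6, 53.7 and 35.1 CPM in Vil.Cre Maf.flox and 44.3, 38.4 and 41.3 CPM in Maf.flox. Of the 12 Paneth markers 1 lay above 0, with sums of 8101, 8019 and 11675 CPM in Vil.Cre Maf.flox and 5902, 19744 and 37641 CPM in Maf.flox.

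Of the 12 markers of hormone-making enteroendocrine cells 3 lay above 0, with sums of 628, 484 and 333 CPM in Vil.Cre Maf.flox and 548, 1024 and 373 CPM in Maf.flox. Of the 11 tested markers of chemosensory tuft cells none lay above 0, with sums of 19.0, 24.7 and 23.7 CPM in Vil.Cre Maf.flox and 55.0, 127 and 26.8 CPM in Maf.flox. All 12 enterocyte markers were below 0, 3 of them called by edgeR, with sums of 7412, 9658 and 5946 CPM in Vil.Cre Maf.flox and 25165, 24576 and 11737 CPM in Maf.flox. The enterocyte and tuft markers were lower in Vil.Cre Maf.flox in sum, while the goblet list was mixed. Of the 8 tested markers of plasma cells, which are rich in ER, 7 lay above 0, among them the members Xbp1 and Derl3. Their immunoglobulin genes were low, with Igha at 3.55, 11.5 and 1.93 CPM and Jchain at 0.609, 3.93 and 0.471 CPM in Vil.Cre Maf.flox, against 3.03, 2.19 and 2.89 CPM and 1.18, 0.26 and 0.379 CPM in Maf.flox. Both were highest in Vil.Cre Maf.flox replicate 2, and Mzb1 was under 1 CPM in all libraries. Fkbp11, a plasma cell marker also on a chaperone list, did not overlap between groups, with a log2 fold change of 1.21. The eighth marker, Sdc1, which epithelium also expresses, had 195, 236 and 185 CPM in Vil.Cre Maf.flox and 284, 230.4 and 207 CPM in Maf.flox.

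**Figure D4:**
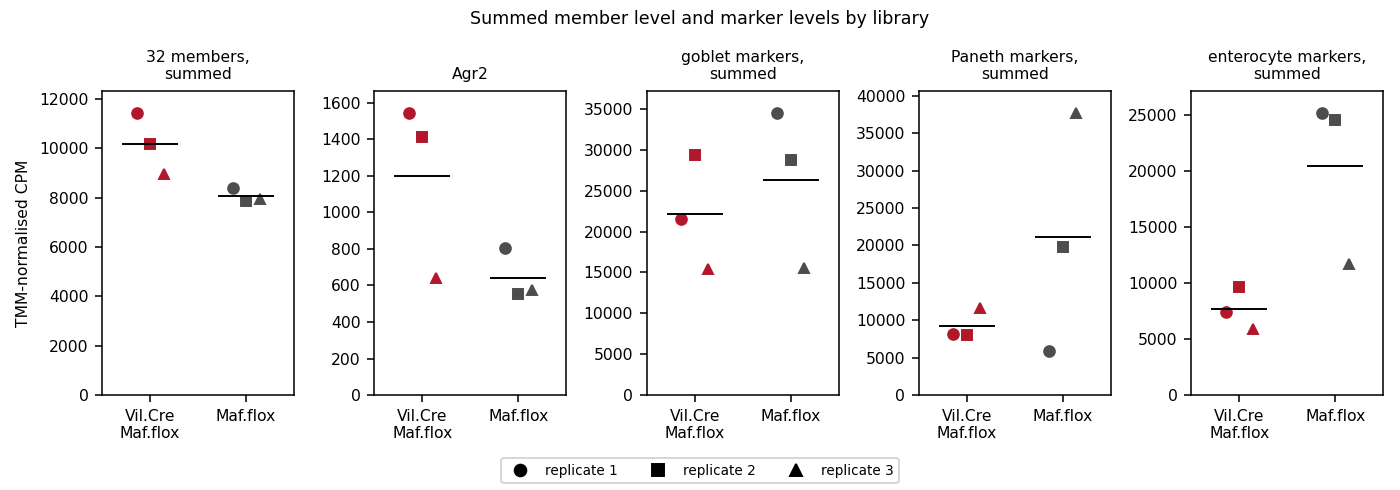
Points are libraries, bars group means, on a CPM axis that starts at 0, for the 32 members summed, for Agr2, and for summed goblet, Paneth and enterocyte markers. The members sum to 8978 to 11421 CPM in Vil.Cre Maf.flox, above the controls, and the goblet, Paneth and enterocyte sums have lower means in Vil.Cre Maf.flox than in Maf.flox.

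Other genes of the secretory pathway, in 8 lists that held 194 tested genes, were set beside the members; like them, they were chosen with earlier results known. Of 25 tested genes of N-glycosylation and the calnexin cycle, 23 lay above 0 with a median log2 fold change of 0.37. Groups did not overlap for 17 of them on the higher side and 1 on the lower side, against 10.1% and 10.5% of all genes. Rpn1, a subunit of the oligosaccharyltransferase that attaches sugar chains, had 591, 457 and 432 CPM in Vil.Cre Maf.flox and 342, 305 and 343 CPM in Maf.flox. Gmppb, which makes the mannose donor, and Uggt1, which checks the folding of glycoproteins, had log2 fold changes of 0.51 and 0.38 (adjusted p = 0.0866 and 0.11 by edgeR). Gmppb shares 33.6% of its exon bases with Rnf123 on the other strand, so its value is uncertain. No gene of the 8 lists passed an adjusted p of 0.05 by edgeR. At an unadjusted p under 0.05, 54 of the 194 were higher and 12 lower, against 7.11% and 9.25% of all genes, and DESeq2 called 17 higher and 3 lower, against 2.06% and 3.48% of all genes.

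Of 25 genes of the translocon, signal peptidase and signal recognition particle, 22 lay above 0 on the log2 fold change scale (median 0.25), with Ssr2 at a log2 fold change of 0.54 (12.8% of its exon bases overlap a pseudogene on the other strand), the ribosome-binding Rrbp1 at 0.43 and the signal peptidase subunit Sec11c at 0.45. Of 32 genes of ER export and retrieval, 24 lay above 0 (median 0.14), with the coat subunit Sec13 at 0.40, the cargo receptor Tmed9 at 0.38 and the retrieval receptor Kdelr3 at 0.71. Further chaperones gave 15 of 18 above 0 (median 0.15), with Dnajc10, a reductase of the degradation pathway, at 0.95 and the prolyl isomerases Fkbp11 and Fkbp2 at 1.21 and 0.39. Further oxidoreductases gave 18 of 24 above 0 (median 0.13), with Ero1l, which recharges disulfide isomerases, at 0.46, Pdia5 at 0.74 and Erp44 at 0.35. By edgeR, adjusted p in this group of genes ran from 0.0883 for Ero1l to 0.201 for Erp44.

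The remaining 3 lists had median log2 fold changes near or below 0. Further degradation genes gave 16 of 28 above 0 with a median of 0.034, close to the degradation members, with the segregase Vcp at 0.48, Selenos at 0.28 and Nploc4 at 0.21. Of 22 genes of sensor processing and transcription factors, 8 lay above 0 (median -0.068). Creb3l3, an ATF6-like factor of liver and gut that is cut from the ER membrane and drives lipid genes, had 13.9, 9.04 and 13.9 CPM in Vil.Cre Maf.flox, against 103, 116 and 39.5 CPM in Maf.flox. Its groups were far apart although Maf.flox replicate 3 was well below the other controls, with a log2 fold change of -2.80 (SE 0.44, adjusted p = 0.0674 by edgeR and 2.97e-06 by DESeq2). Creb3l1, a related factor, stood at 0.43 and Cebpb, which shares 20.7% of its exon bases with a gene on the other strand, at -0.39, both with overlapping groups.

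Of 21 genes around PERK and its effector ATF4, 5 lay above 0 and 16 below (median -0.15). Trib3, a pseudokinase induced by ATF4 and CHOP, had 4.11, 3.52 and 2.44 CPM in Vil.Cre Maf.flox, against 7.74, 11.0 and 5.88 CPM in Maf.flox, and a log2 fold change of -1.29 (SE 0.287, adjusted p = 0.0866 by edgeR). Chac1, a glutathione-degrading enzyme that ATF4 also induces, stood on the other side, with 4.06, 2.76 and 3.12 CPM in Vil.Cre Maf.flox, against 0.799, 1.98 and 1.33 CPM in Maf.flox, and a log2 fold change of 1.29 (SE 0.351, adjusted p = 0.131). The groups of both genes were separate, on opposite sides. Sesn2, a stress gene that restrains growth signalling, stood at -0.50. Named after their values were seen, Ddit3, which encodes the stress factor CHOP, stood at -0.59 (adjusted p = 0.197) and Atf4 at -0.047 (95% interval -0.27 to 0.18).

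**Figure D5:**
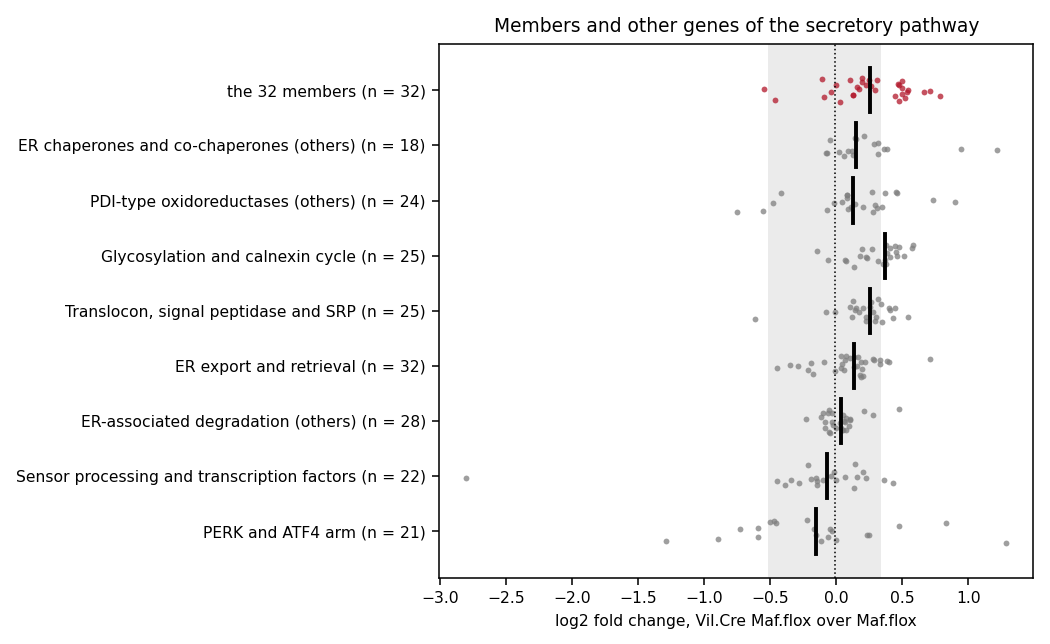
Points are log2 fold changes of Vil.Cre Maf.flox over Maf.flox for the members (red) and the tested genes of 8 further lists (grey), with thick bars at list medians, a dotted line at the median of all genes tested and a shaded band from their 10th to their 90th percentile. The medians lie between 0.37 for glycosylation and -0.15 for the PERK and ATF4 genes.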

How the data were processed

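Random hexamers primed cDNA from poly-T selected RNA, per the labels' protocols, and whether libraries kept strand is not given in the sources used here. The submitters' processing notes name HISAT2 2.0.5, featureCounts 1.5.0-p3, DESeq2 and the build GRCm38. Gene counts were used as the authors deposited them, unnormalised. FPKM values, which the authors scaled to gene length and library size, served only to set levels of different genes side by side.

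Genotype was tested on counts in edgeR 4.0.16 (R 4.3.3), with filterByExpr (least count 10), TMM factors, the robust quasi-likelihood F test and Benjamini-Hochberg adjustment over 13740 genes. A gene is called at an adjusted p of 0.05. The members and lists were chosen with earlier results of these data known, and no p was adjusted over a list. All members are named, and from each of 8 other lists the 3 genes with the smallest p. Exon overlaps came from GENCODE M21 (GRCm38), which gave all 32 members the deposited start and end. Of these, 10 share exon bases with another gene, 3 of them more than 5%. Promoter sequences are from RefSeq (GRCm38.p6). Alternatives were RLE and upper quartile scaling, no filter, a stricter filter (1 CPM in all libraries of a group), DESeq2 1.42.0, limma-voom (limma 3.58.1), other thresholds, a replicate block, a term for sex read from counts, and leaving out each library. Ratios within each sex were added after seeing the data. The tests were also run on simulated counts with planted changes larger than that of any member. That check does not cover changes of the members' size.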

Additional observations from a re-analysis of the deposited data

How the results depend on the processing

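The number of members above 0 was 25 to 27 of 32, and their median log2 fold change 0.21 to 0.36, with any library left out, and both kept their direction under every other fit. Ratios within each sex rest on 1 library on one side and say nothing on stability. The summed level differed by 2122 CPM between genotypes, and by 1563 to 2691 CPM with 1 library left out. The number of calls did depend on the fit. Against 75 genes and 0 members by edgeR at 0.05, there were 365 genes and 7 members with no filter, 761 and 14 with DESeq2, and 372 and 6 at FDR 0.1. FDR 0.01 left 2 genes, the sex term 38 and limma-voom 30, with 0 members each. With 1 library left out there were 8 to 701 genes and 0 to 4 members, the 4 without Maf.flox replicate 3, which gave 701 genes. A replicate block gave 440 genes and 7 members (Creld2, Dnajb11, Dnajb9, Hyou1, Pdia4, Pdia6 and Sdf2l1), against 3.2% of all genes. In their deviations from the group means, libraries of equal number had correlations of 0.092, -0.026 and 0.27, and some libraries were closer to one of another number. The numbers were therefore read as names only. The value of Eif2ak3 was -0.0040 with the sex term, and that of Atf6 was 0.0032 with RLE scaling, 0.023 with upper quartile scaling, 0.018 with no filter, 0.0035 with DESeq2 and 0.035 with the sex term. With 1 library left out the values ran from -0.047 to 0.12 for Eif2ak3, -0.051 to 0.074 for Atf6, -0.12 to 0.058 for Edem1, -0.17 to 0.015 for Syvn1 and -0.13 to 0.47 for Derl3. The cause of these changes was not tested. Under the stricter filter Derl3 was not tested, and 25 of the remaining members were above 0. With about 1 CPM or less, the direction of Derl3 is limited by depth. With 3 libraries a group, and a control that stands apart, a gene without a call may still differ.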

Other observations

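A group of secretory genes outside the set, named after their values were seen, was lowest in replicate 3 within Vil.Cre Maf.flox, like most members. Agr2, an isomerase needed for mucin folding in goblet cells, had 1542, 1412 and 641 CPM in Vil.Cre Maf.flox and 806, 551 and 574 CPM in Maf.flox. Vil.Cre Maf.flox replicate 3 lay within the range of the controls, and the log2 fold change of 0.90 (SE 0.326) had an edgeR adjusted p of 0.234. Pdia5 had 82.9, 74.0 and 44.7 CPM in Vil.Cre Maf.flox and 44.4, 34.9 and 41.6 CPM in Maf.flox, and Txndc5 had 632, 619 and 377 CPM in Vil.Cre Maf.flox and 441, 358 and 389 CPM in Maf.flox. Fkbp11 had 23.5, 14.9 and 8.77 CPM in Vil.Cre Maf.flox, all above the 6.73, 6.14 and 7.40 CPM in Maf.flox. Over the 194 tested genes of the other lists, Vil.Cre Maf.flox replicate 3 was the lowest of its group for 130, or 67%, against 39.3% of all genes tested. Each of the 12 goblet markers was also lowest in replicate 3 within Vil.Cre Maf.flox, but their levels against the controls were divided. Spink4, a goblet cell peptide, had 880.4, 968 and 518 CPM in Vil.Cre Maf.flox and 515, 592 and 651 CPM in Maf.flox, and Galnt12, a mucin-glycosylating enzyme, had 101, 92.0 and 65.7 CPM in Vil.Cre Maf.flox and 73.1, 64.4 and 67.1 CPM in Maf.flox, both with replicates 1 and 2 of Vil.Cre Maf.flox above all other libraries. Muc2, the main gel-forming mucin, had 1868, 2595 and 1431 CPM in Vil.Cre Maf.flox and 3031, 2523 and 1279 CPM in Maf.flox, with Maf.flox replicate 1 the highest.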
